A study of Mus musculus with 6 samples.

Results

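The Hippo pathway was followed in hearts of E10.5 mouse embryos through 10 genes: the transcriptional co-activators Yap1 and Wwtr1 (the gene of TAZ), their DNA-binding partners Tead1, Tead2 and Tead4, the kinases Lats1 and Lats2, and the angiomotins Amot, Amotl1 and Amotl2. Their members on the array are the 25 probe sets whose annotation holds exactly 1 of these symbols, of 34945 probe sets with 1 symbol and 45037 in all besides controls. One more probe set, annotated to both Xpo4 and Lats2, was left out. The knockout (KO) group is 3 arrays of heart RNA from embryos in which Rnd3, also called RhoE, is disrupted in all tissues by a gene trap. The wild-type (WT) group is 3 arrays of hearts without it. Per the design text the embryos came as littermate pairs, but nothing ties an array's number to its pair. Both groups are on the C57BL/6N background and were taken at E10.5, when the heart tube has looped, and the study's design text places the death of the knockouts from about that day on. The labels do not say whether an array holds 1 heart or a pool. The p-values set the difference between the groups against the spread of these 6 arrays within their groups. In the limma fits that spread is estimated in part from the other tested genes or probe sets.

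The Hippo pathway limits organ growth. A kinase chain passes from Stk3 and Stk4 (the mammalian MST kinases), with the scaffold Sav1, to Lats1 and Lats2, which phosphorylate YAP and TAZ so that these stay in the cytoplasm or are degraded. Unphosphorylated YAP and TAZ enter the nucleus, where they bind TEAD factors and switch on genes such as Ccn1, Ccn2 and Ankrd1. Angiomotins are junction and actin-binding proteins that can hold YAP and TAZ outside the nucleus. In the embryonic mouse heart YAP is known to drive cardiomyocyte proliferation.

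The promoters of the 4 genes that had a probe set with no overlap between KO and WT signals are shown because the array measures the transcripts that start there. RefSeq windows on GRCm38.p6 run from 250 bases before to 50 bases after the transcript start, and capitals mark the TEAD core motif GGAATG or its reverse complement CATTCC, both strands being searched. Wwtr1 has a further window that overlaps the printed one. The Yap1 window is chr9:8004547-8004846 on the minus strand, the Wwtr1 window chr3:57575861-57576160 on the minus strand, the Amotl1 window chr9:14614951-14615250 on the minus strand and the Amotl2 window chr9:102717554-102717853 on the plus strand.
Yap1: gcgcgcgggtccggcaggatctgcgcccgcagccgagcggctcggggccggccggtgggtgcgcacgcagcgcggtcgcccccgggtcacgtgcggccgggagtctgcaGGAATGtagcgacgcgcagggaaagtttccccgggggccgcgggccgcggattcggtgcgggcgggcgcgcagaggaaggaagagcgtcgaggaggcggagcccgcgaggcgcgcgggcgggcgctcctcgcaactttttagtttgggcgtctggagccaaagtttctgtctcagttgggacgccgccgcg
Wwtr1: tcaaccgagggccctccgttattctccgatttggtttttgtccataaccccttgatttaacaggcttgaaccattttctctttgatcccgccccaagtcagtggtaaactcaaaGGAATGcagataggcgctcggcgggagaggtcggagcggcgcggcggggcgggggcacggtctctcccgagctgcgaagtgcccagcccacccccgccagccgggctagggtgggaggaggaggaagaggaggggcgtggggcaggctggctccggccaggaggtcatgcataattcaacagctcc
Amotl1: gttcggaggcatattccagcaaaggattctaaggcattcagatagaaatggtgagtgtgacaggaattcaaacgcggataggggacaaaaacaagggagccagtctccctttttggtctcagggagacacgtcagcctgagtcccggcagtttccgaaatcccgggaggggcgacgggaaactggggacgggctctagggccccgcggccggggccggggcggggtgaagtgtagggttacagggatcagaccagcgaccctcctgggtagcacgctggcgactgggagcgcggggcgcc
Amotl2: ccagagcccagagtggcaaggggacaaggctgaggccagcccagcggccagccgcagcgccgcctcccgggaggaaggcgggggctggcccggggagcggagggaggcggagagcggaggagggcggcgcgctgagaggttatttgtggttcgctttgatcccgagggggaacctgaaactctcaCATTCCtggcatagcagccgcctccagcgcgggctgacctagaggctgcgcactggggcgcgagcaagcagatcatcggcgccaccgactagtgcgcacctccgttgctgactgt
Of the 10 genes, 8 had a window in the RefSeq table, and 4 of these (Yap1, Wwtr1, Lats2 and Amotl2) held the motif in at least 1 window. Over all 27025 genes in the table the share was 16.6%. In the Yap1 window the motif begins 141 bases before the start, and in the printed Wwtr1 window 136 bases before it. The Amotl2 window holds it in reverse, and the Amotl1 window does not hold these letters. For comparison, 4 of 18 YAP and TAZ target genes with a window held it, among them Ccn1 and Ankrd1. A match describes the letters in the window and is no evidence of binding.

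Array quality and identity were checked first. The deposited values are MAS5 signals on a linear scale, and a low-signal limit was set at each array's 40th percentile (44.5 to 52.8). Rnd3 itself read 5.89, 12.3 and 121 on KO arrays 1, 2 and 3, against 909, 954 and 862 in WT, and was above the limit on KO array 3 alone among the KO arrays. All 14 cardiomyocyte markers were tested and none passed the threshold (limma), with summed signals of 319424 to 347081 in KO and 329834 to 356047 in WT. The groups did not overlap for 5 of the 14, 4 lower and 1 higher in KO, beside 26.3% of all tested genes. Arrays of a group correlated at r = 0.975 to 0.978 in KO and 0.982 to 0.983 in WT over 12712 genes. The sex of the tissue moved with the genotype: Xist, which marks female tissue, read 539, 8884 and 28.4 in KO, against 10251, 12474 and 11878 in WT. The Y-linked gene Eif2s3y read 2214, 793 and 2339 in KO, against 551, 312 and 385 in WT. The ratio of the 3' over the 5' Gapdh control probe set, which depends on how intact the RNA is, was 0.969 ± 0.0274 in KO and 1.11 ± 0.0175 in WT (SD, n = 3 each), with no overlap. The same ratio for Actb was 2.40 ± 0.164 in KO and 2.52 ± 0.147 in WT, and there the groups overlapped.

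Yap1 was the 1 gene of the 10 that passed the test, and it was lower in the KO hearts. Its brightest probe set, 1448363_at, read 3496, 3402 and 3391 in KO, against 4464, 4538 and 4654 in WT. All 3 KO values lay below all 3 WT values, and the spread within each group was small beside the gap (3430 ± 58.0 in KO and 4552 ± 95.8 in WT, SD, n = 3 each). Yap1 fell to 0.753 times its WT level, a log2 fold change of -0.41 (SE 0.08, 95% interval -0.57 to -0.24, limma adjusted p = 0.0378 over 12712 genes). In bulk tissue, fewer Yap1-expressing cells and less Yap1 RNA per cell cannot be told apart. Of all tested genes 1.27% passed, 0.488% as lower and 0.787% as higher in KO. Of these calls 61.7% were higher in KO, and 80.7% with arrays centred on the median of all probe sets.

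The Yap1 call stood close to the threshold. The log2 fold change was between -0.43 and -0.35 in 15 of 16 other processing settings, but the adjusted p was below 0.05 in only 5 of the 16. Leaving out WT array 1, 2 or 3 gave adjusted p = 0.148, 0.190 and 0.120 by limma, and leaving out KO array 2 or 3 gave 0.0514 and 0.131, while without KO array 1 it was 0.0227. With the Xist signal of each array as a covariate the log2 fold change was -0.40 (adjusted p = 0.0779). KO array 2, whose Xist signal was near that of the WT arrays, read 3402 for Yap1, between the other KO arrays. Its Eif2s3y signal of 793 was above all WT arrays (551, 312 and 385), so it was not like WT in both sex-linked signals. The part of sex in the Yap1 difference was not tested.

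**Figure D1:**
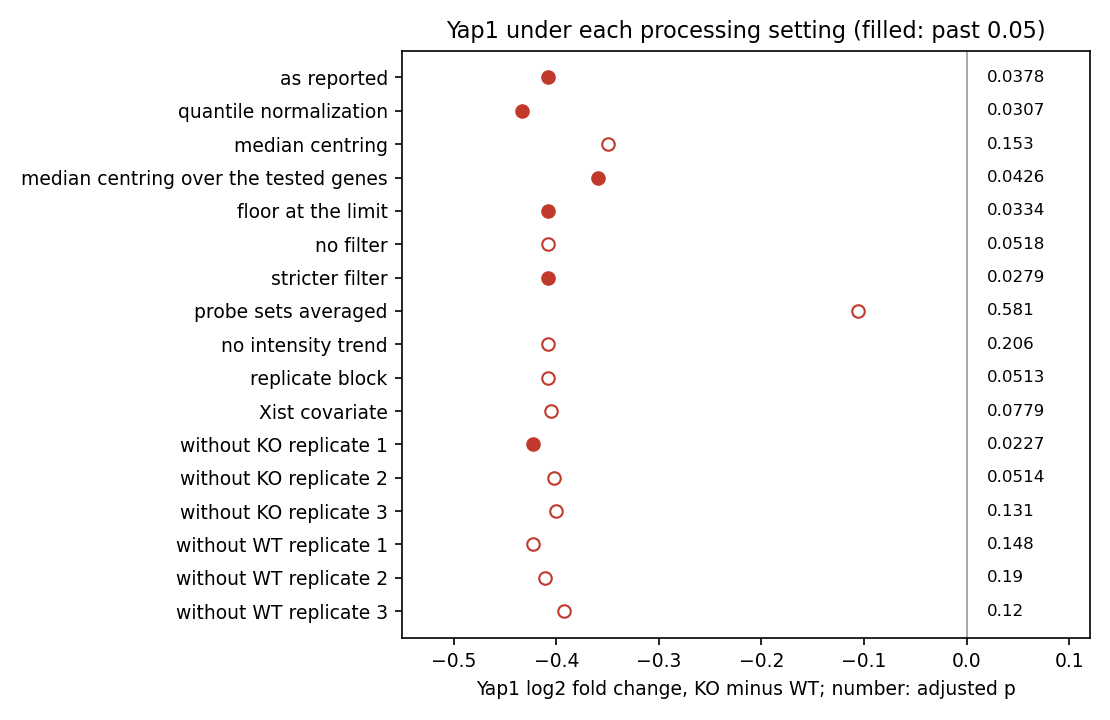
Yap1 log2 fold change (KO minus WT, brightest probe set, x axis) as reported and under each other processing setting (y axis), with the adjusted p printed at the right and filled circles where it is below 0.05. All values lie between -0.43 and -0.35 except with the gene's probe sets averaged (-0.11), and the adjusted p runs from 0.0227 to 0.581.

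A dimmer Yap1 probe set had the opposite sign and did not pass the test. Probe set 1416487_a_at read 372, 384 and 435 in KO, against 371, 331 and 336 in WT. The lowest KO value, 372.00, was just above the highest WT value, 371.18, so these groups did not overlap either, but in the opposite direction. Fitted on its own this probe set had a log2 fold change of 0.20 (SE 0.13, 95% interval -0.09 to 0.49, limma adjusted p = 0.487 over 27404 probe sets). The log2 ratio of the brighter over the dimmer probe set was 3.23, 3.15 and 2.96 in KO, against 3.59, 3.78 and 3.79 in WT. The ratio was thus lower on every KO array than on any WT array, by 0.60 on average. This separation follows from the opposite directions of the 2 sets and is a description, with no test.

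Both Yap1 probe sets carry the same transcript accession in the platform's annotation, and by Affymetrix naming a suffix of a_at marks probes shared by several transcripts of a gene. Where either set lies on the Yap1 transcripts was not analysed here. Among the 11 pairs of a brightest and another tested probe set of a gene, the ratio did not overlap between the groups in 3 (27.3%), against 22.3% over 10615 such pairs on the array. Opposite directions with no overlap in both sets, as for Yap1, occurred in 1.97% of those pairs, and for Yap1 this rests on 372.00 against 371.18. In 9.98% of the pairs the 2 changes differed by at least as much as for Yap1. With the probe sets of each gene averaged, the log2 fold change of Yap1 was -0.11 (limma adjusted p = 0.581). The 3' to 5' ratio did not overlap between the groups for Gapdh but did for Actb, and its part in this difference was not tested.

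Wwtr1, which encodes the YAP paralog TAZ, had overlapping groups in its brightest probe set and higher KO signals, short of the threshold, in a dimmer one. Probe set 1417818_at read 2244, 2487 and 2492 in KO, against 2293, 2345 and 2611 in WT. The groups were interleaved, and the log2 fold change was -0.0043 with a 95% interval of -0.21 to 0.20 (limma adjusted p = 0.986), or 0.866 to 1.15 times the WT level. Probe set 1417817_a_at read 508, 604 and 642 in KO, against 488, 395 and 416 in WT. Every KO array was above every WT array there, with a log2 fold change of 0.43 (SE 0.14, 95% interval 0.13 to 0.74, adjusted p = 0.152), short of the threshold. The remaining set, 1437155_a_at, read 544, 607 and 592 in KO, against 490, 430 and 551 in WT, with overlap between the lowest KO and the highest WT array (0.25, SE 0.13, adjusted p = 0.357).

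As for Yap1, the log2 ratio of the brightest Wwtr1 set over each of the others was lower on every KO array than on any WT array. It differed by -0.44 against 1417817_a_at and by -0.26 against 1437155_a_at (exact two-sided permutation p = 0.1 each, the smallest that 3 against 3 arrays allow, and 0.367 after adjustment over the 11 pairs). Both ratios share the brightest set, so they are not independent of each other. As given above, ratios that did not overlap were about as frequent among these pairs as over the whole array.

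**Figure D2:**
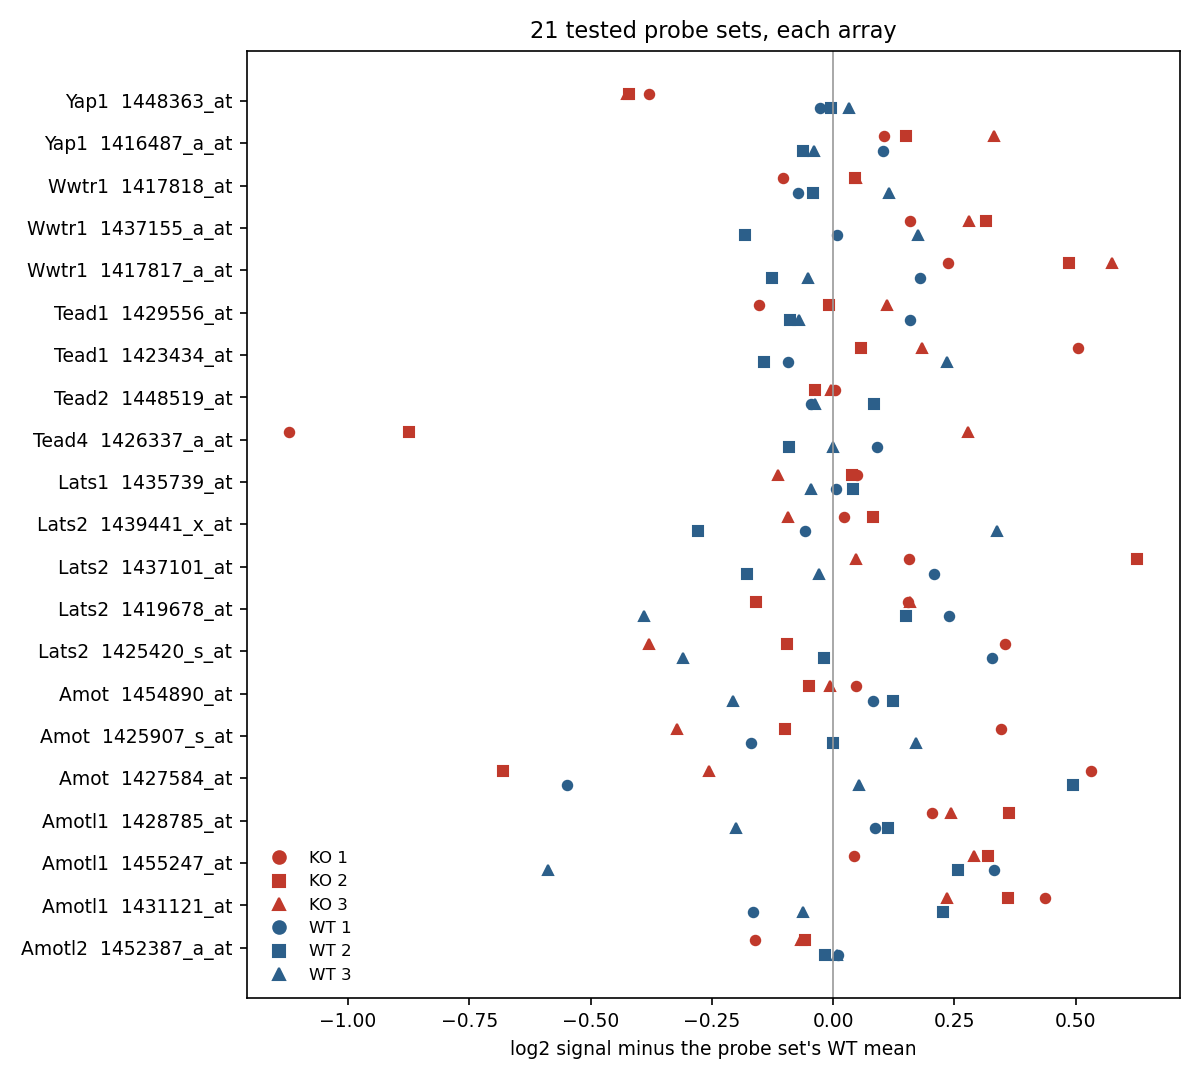
Log2 signal of each array minus the mean of the 3 WT arrays (x axis) for the 21 tested probe sets of the 10 genes (y axis), KO in red above WT in blue, with 1 symbol shape per replicate number. KO points of Yap1 1448363_at lie near -0.4, while those of Yap1 1416487_a_at and Wwtr1 1417817_a_at lie to the right of all WT points.

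The TEAD factors bring YAP and TAZ to DNA. Tead1, the family member required for growth of the mouse embryonic heart wall, read 4431, 4902 and 5325 in KO, against 5499, 4634 and 4695 in WT. The highest and the lowest of these 6 signals were WT array 1 and KO array 1, and the groups overlapped (log2 fold change -0.02, 95% interval -0.23 to 0.20, limma adjusted p = 0.942). Its dimmer set 1423434_at read 208, 153 and 166 in KO, against 138, 133 and 173 in WT (0.25, SE 0.20, adjusted p = 0.559).

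Tead2, a TEAD factor of early mouse embryos, read 2522, 2450 and 2508 in KO, against 2439, 2665 and 2450 in WT. It had the narrowest interval of the TEAD genes, -0.20 to 0.17 around a log2 fold change of -0.01 (limma adjusted p = 0.947). Tead4, known in the mouse for its role in the trophectoderm, lay at the low-signal limit. Its brighter set read 25.2, 29.9 and 66.3 in KO, against 58.3, 51.3 and 54.7 in WT. It passed the filter through 1 KO and 2 WT arrays, and its fitted log2 fold change of -0.57 has an interval from -1.63 to 0.48 (adjusted p = 0.538). With signals raised to the limit the value was 0.00043, and its other set was below the limit on all 6 arrays, so a difference in Tead4 was not measurable here.

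**Figure D3:**
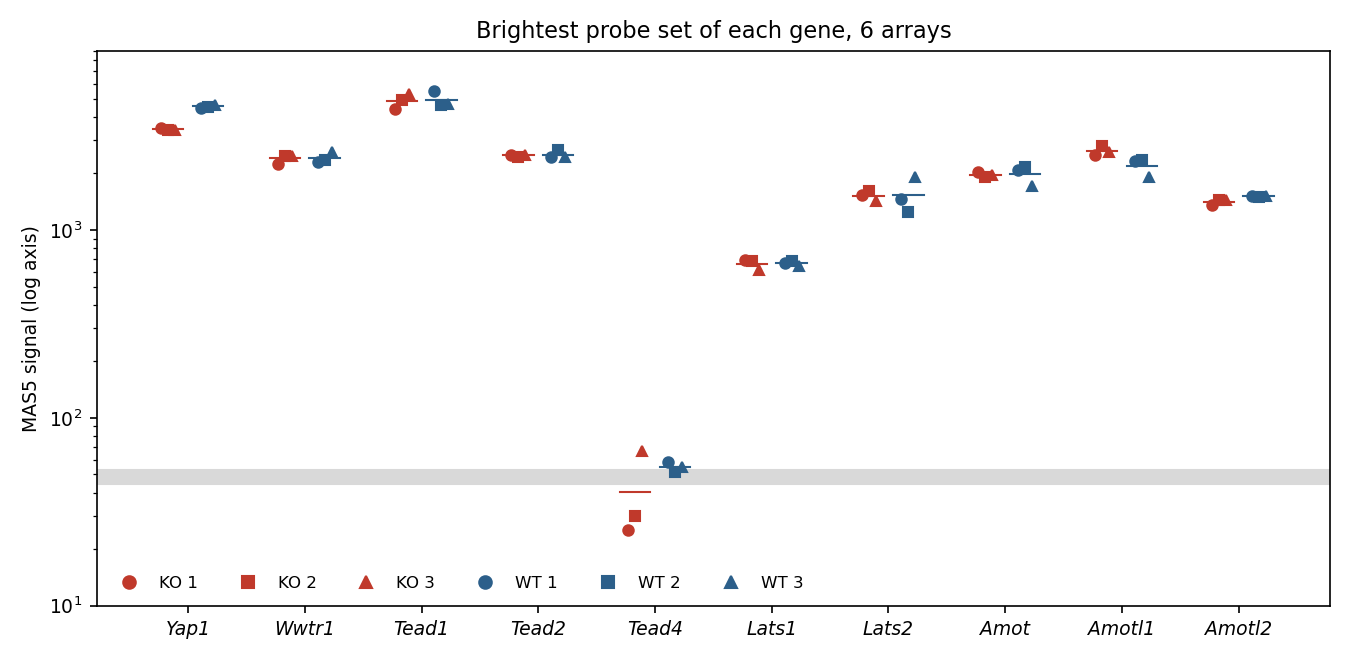
MAS5 signal on a log axis (y) of the brightest probe set of each gene (x), with KO arrays in red to the left of WT arrays in blue and a line at each group mean; the grey band spans the low-signal limits of 44.5 to 52.8. Yap1 is the gene whose KO and WT points are clearly apart, and Tead4 lies at the band; heights of different probe sets are not comparable.

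The LATS kinases inhibit YAP and TAZ by phosphorylation. Lats1 read 688, 684 and 615 in KO, against 668, 684 and 644 in WT, groups that overlapped closely (log2 fold change -0.0083, 95% interval -0.24 to 0.22, limma adjusted p = 0.977). Its other probe set was below the limit on every array. Lats2, itself a known YAP target, has 6 probe sets. The brightest, 1439441_x_at, read 1543, 1610 and 1425 in KO, against 1459, 1252 and 1922 in WT. The WT arrays alone spanned the full range of KO values (log2 fold change 0.0034, interval -0.31 to 0.32, adjusted p = 0.992). The suffix x_at marks probes that may match other transcripts, so this signal is less certain than those of sets without that suffix.

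The next Lats2 set, 1437101_at, read 444, 615 and 412 in KO, against 460, 352 and 390 in WT (0.28, SE 0.17, limma adjusted p = 0.448). Of the remaining Lats2 sets, 1419678_at and 1425420_s_at had log2 fold changes of 0.05 and -0.04, and the last 2 did not pass the filter. One of these, 1426156_at, was above the limit on KO array 3 alone, at 52.3.

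The angiomotins were the family with the only other unadjusted p below 0.05 in the gene fit. Amotl1, whose product binds YAP at junctions, read 2520, 2812 and 2590 in KO, against 2321, 2366 and 1904 in WT. All KO values were above all WT values, by a log2 fold change of 0.27 (SE 0.10, 95% interval 0.04 to 0.50), but the adjusted p of 0.180 did not pass. The other Amotl1 sets had the same sign. Set 1431121_at read 129, 122 and 112 in KO, against 85.0, 112 and 91.3 in WT, again without overlap (112.19 on the lowest KO array and 111.53 on the highest WT array, 0.34, SE 0.22). Set 1455247_at read 555, 672 and 658 in KO, against 677, 643 and 358 in WT, where WT array 3 alone was far below the rest (0.22, SE 0.21). The Amotl1 value was positive in all 16 other settings, from 0.17 without WT array 3 to 0.33 with the Xist covariate, and it passed in none.

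Amotl2, an angiomotin and YAP target, read 1351, 1451 and 1443 in KO, against 1520, 1492 and 1518 in WT. The groups did not overlap, but the difference was small, 0.936 times (log2 fold change -0.09, 95% interval -0.29 to 0.10, limma adjusted p = 0.591). Amot, which lies on the X chromosome, read 2042, 1910 and 1966 in KO, against 2092, 2151 and 1712 in WT. Its log2 fold change was -0.0027 (interval -0.23 to 0.23, adjusted p = 0.992). KO arrays 1 and 3, with low Xist, read 2042 and 1966, inside the WT range, and the part of sex in the Amot signals was not tested. The dimmer Amot sets 1425907_s_at and 1427584_at had -0.02 and -0.14, with overlapping groups.

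Counted together, 1 of the 10 genes passed (Yap1, lower), 8 had a negative and 2 a positive log2 fold change, and the median was -0.01, against -0.04 over all tested genes. The groups did not overlap for 3 genes (Yap1, Amotl1 and Amotl2), or 30.0%, against 26.3% of all tested genes, a share near the background. The signs of Wwtr1, Tead1, Tead2, Lats1 and Amot turned positive, at 0.06 or less, when arrays were centred on their medians. Of the 25 probe sets 21 passed the filter, and 1 of the 21 (Yap1 1448363_at, limma adjusted p = 0.0462) passed the test over all probe sets, where 0.595% did. Non-overlap was seen for 6 of the 21 (28.6%), 4 higher and 2 lower in KO, against 23.1% of all tested probe sets. For Wwtr1, Tead1, Tead2, Lats1 and Amot the 95% intervals lay within a log2 change of 0.25 in either direction, and for Lats2 within 0.32. These limits hold for the brightest probe sets alone: with the probe sets of each gene averaged, the log2 fold change was -0.28 for Lats1 and 0.47 for Lats2, neither past the threshold. Those averages include sets that did not pass the filter: Lats1 1427679_at (mean log2 difference -0.56), and Lats2 1426156_at (1.74) and 1419679_at (0.79). The tested Lats2 sets ran from -0.04 to 0.28.

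**Figure D4:**
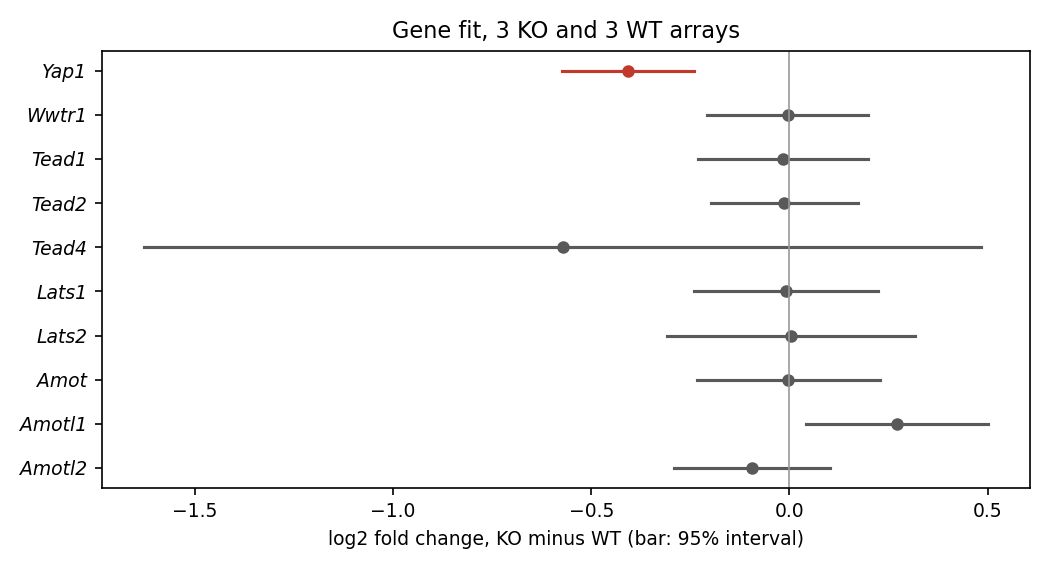
Log2 fold change (KO minus WT, x axis) of each gene's brightest probe set (y axis) with its 95% interval from the fit over 12712 genes, 3 arrays per group; red marks the gene past an adjusted p of 0.05. Yap1 is at -0.41 with an interval of -0.57 to -0.24, Amotl1 at 0.27, and Tead4 has the widest interval.

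The wider pathway was described through lists of upstream regulators, target genes and TEAD cofactors. Of 35 upstream regulators 33 were tested and none passed the threshold (limma), with 7 at an unadjusted p below 0.05, where 20.3% of all tested genes were. Their median log2 fold change was -0.06, against -0.04 over all tested genes, and 12 of 33 had groups that did not overlap, 9 of them lower in KO. Over all tested genes 26.3% did not overlap, 15.5% as lower. Csnk1d, a casein kinase that marks phosphorylated YAP for degradation, came closest (-0.39, SE 0.09, adjusted p = 0.0535). Its brightest set, 1437690_x_at, read 2748, 2698 and 2473 in KO, against 3293, 3596 and 3483 in WT. The x_at suffix again marks probes that may match other transcripts. Stk4, the MST1 kinase at the head of the chain, read 3114, 2717 and 2703 in KO, against 3509, 3391 and 3530 in WT (-0.29, SE 0.09, adjusted p = 0.101). Both genes had all KO arrays below all WT arrays without passing.

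Map4k4, a kinase that can activate LATS, had -0.44 (SE 0.12, limma adjusted p = 0.0773), and Wwc1, the scaffold KIBRA that helps activate LATS, had -0.55 (SE 0.15, adjusted p = 0.0895). Other tested probe sets of these genes ranged from values close to the brightest set (-0.38 for Csnk1d 1456727_a_at, -0.35 for Stk4 1434159_at and -0.45 for Wwc1 1427261_at) to values near 0 (-0.0020 for Csnk1d 1449932_at and -0.0034 for Map4k4 1440609_at).

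Target genes of YAP and TAZ were spread evenly around 0. Of 30 listed, 29 were tested and none passed (limma), 14 had a positive and 15 a negative value, 7 had an unadjusted p below 0.05, and the median was -0.0069. The groups did not overlap for 11 of them, 5 higher and 6 lower in KO, beside 10.8% of all tested genes as higher and 15.5% as lower. The unadjusted share over all genes was the 20.3% given above. Ankrd1, a titin-binding stress protein of cardiomyocytes, read 11930.5, 15315 and 13325 in KO, against 10970.0, 11005 and 11367 in WT (0.28, SE 0.09, adjusted p = 0.123). Birc5, the mitotic protein survivin, had 0.26 (SE 0.09, adjusted p = 0.144). In the other direction, Fzd7, a Wnt receptor, had -0.75 (SE 0.25, adjusted p = 0.130), with KO array 3 at 605 well below the other KO arrays at 1392 and 1159.

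The classical targets Ccn1 and Ccn2, matricellular proteins, had opposite signs. By its brightest set, 1416039_x_at, Ccn1 read 1919, 1254 and 1639 in KO, against 2406, 1896 and 2129 in WT (-0.43, SE 0.15, limma adjusted p = 0.141). That suffix marks probes that may match other transcripts. The other 3 Ccn1 sets had -0.80, -0.64 and -0.18. Ccn2 read 2293, 3799 and 3113 in KO, against 2398, 2770 and 2317 in WT (0.27, SE 0.16, adjusted p = 0.359). For both, KO array 2 was the array farthest from WT. Of the TEAD cofactor list, Tead3 had -0.23, Vgll4 0.04 and Vgll2 -0.74 (SE 0.28, adjusted p = 0.170), none past the threshold.

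**Figure D5:**
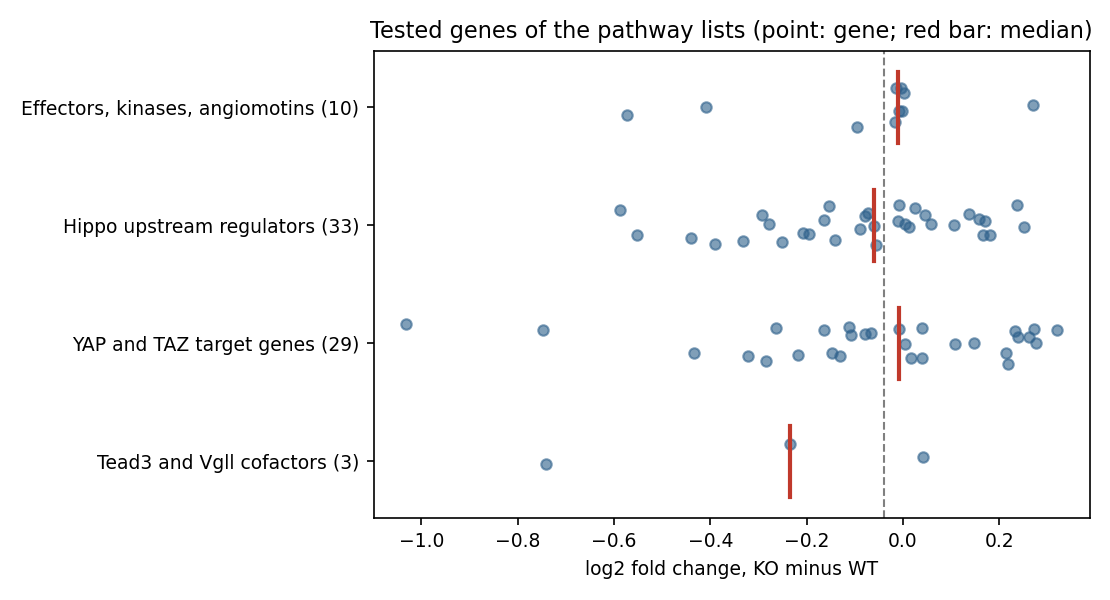
Log2 fold change (KO minus WT, x axis) of every tested gene in each list (y axis, number tested in parentheses), with red bars at list medians and a dashed line at the median of all tested genes (-0.04). The upstream and target lists spread to both sides of 0 with medians of -0.06 and -0.0069.

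Markers of other cell types are given as measured values, and their part in these results was not tested. All 5 tested foregut and surface epithelium markers had negative log2 fold changes (median -0.44) and none passed. The summed signals of all 7 listed genes were 3109 to 5641 in KO and 5897 to 6629 in WT, without overlap. The groups did not overlap for 2 of the 5 tested, Krt8 and Krt18, the brightest of the list, beside 26.3% of all tested genes. Foxa2 and Nkx2-1 did not pass the filter, and Nkx2-1 was below the limit on every array. Neuron markers summed to 990.4 to 1165 in KO and 1202 to 1443 in WT, also without overlap, but 2 of the 5 tested had positive log2 fold changes and none passed. Liver and yolk sac markers summed to 380.3 to 1941 in KO and 1543 to 7521 in WT. All 6 tested genes of that list had negative log2 fold changes (median -0.84). Of them Alb, serum albumin, was the 1 gene that passed (lower), and it was above the limit on 1 KO array. Sums of endothelial, cushion mesenchyme, epicardial, erythroid and macrophage markers overlapped between the groups, and of these 5 lists 1 gene passed, the macrophage gene Lyz2 (higher). By sign, 8 of 9 tested cushion mesenchyme genes were negative and 5 of 6 tested macrophage genes positive. Endothelial genes had 6 positive and 4 negative values, and epicardial and erythroid genes 3 of each. Over all 12712 tested genes 7139 were negative.

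By likeness of pattern, the 5 genes closest to the Yap1 probe set 1448363_at over the 6 arrays were Agps, Rfc1, Myo1c, Vipas39 and Gtf3c1. Their mean-centred log2 signals differed from those of Yap1 by 0.0187 to 0.0332 on average per array. Each was lower on all 3 KO than on all 3 WT arrays, which follows from their choice by likeness to Yap1. None passed the threshold (limma adjusted p from 0.0627 to 0.0861).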

How the data were processed

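Per the labels, biotinylated cRNA from heart RNA was hybridised to 6 Affymetrix mouse arrays (3 KO, 3 WT). Each deposited value is the linear signal intensity of 1 probe set. The submitters' processing notes name MAS5 and Affymetrix Expression Console, without versions or settings. In the values, each array's mean after trimming 2% at each end was 500.003 to 500.004, and no further scaling was applied. The number of arrays limits the precision.

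The 64 control probe sets were left out. Of the other 45037, 34945 had 1 gene symbol, 932 several and 9160 none in the platform's annotation; 34741 matched a RefSeq gene and 0 symbols changed. The low-signal limit was each array's 40th percentile. A gene (18193 in all) was represented by its brightest probe set by mean log2 signal, if above the limit on at least 3 arrays (12712 genes); a second fit took each of 27404 such probe sets on its own, named or not. Both were fitted in R 4.3.3 by limma 3.58.1 as KO minus WT, using lmFit and eBayes (trend on), Benjamini-Hochberg adjustment and a threshold of 0.05, and were tested on simulated data. "Rose" and "fell" are used only past it. Pairs of probe sets were compared by an exact permutation test over arrays, which for Yap1 restates its opposite directions and is not quoted.

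The 10 genes, the lists and the tests were chosen with earlier results of these data known. Covered are all probe sets of the 10 genes, though not each by its number or with its signals. Also named are, in each list, genes past the threshold and up to 4 with the smallest p (marker lists as sums), Rnd3, sex-linked genes and the 5 genes most like Yap1. Ccn2, Lyz2 and Alb were added after their values were seen. Alternatives covered scaling, a floor, filters, averaging of probe sets, the variance model, a replicate block, an Xist covariate and leaving out each array; centring over the tested genes was added after seeing the data.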

Additional observations from a re-analysis of the deposited data

How the results depend on the processing

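With 3 arrays a group, dim probe sets such as those of Tead4 gave intervals too wide to read. Over the 16 other settings Yap1 and Amotl2 stayed negative and Amotl1 positive, and none of the 10 genes but Yap1 passed in any. Yap1 missed the threshold with median centring over all probe sets (-0.35), with no filter (-0.41, adjusted p = 0.0518), without the intensity trend (-0.41, adjusted p = 0.206), with averaged probe sets (-0.11) and with the Xist covariate (-0.40). The averaged value is by construction the mean over the 2 Yap1 probe sets, which had -0.41 and 0.20. The cause in the other settings was not tested. The fit with the replicate block gave the same Yap1 value of -0.41 at an adjusted p of 0.0513, with 0 of the 10 genes and 0 of their probe sets past the threshold. Same-numbered arrays deviated together only at r = 0.0182, 0.0573 and 0.0150, so the numbers were not taken to pair them. The 162 calls over all genes became 83 with median centring, 312 with centring over the tested genes, 291 with the stricter filter, 1 with no filter, 0 with averaged probe sets, 1 without the trend and 6 with the Xist covariate. Of those calls 61.7% were higher in KO, against 80.7% and 81.1% under the 2 centrings. The number among the 10 genes was 0 with median centring, no filter, averaging, no trend or the covariate, and the number of their probe sets 0 with no filter or no trend. Leaving out 1 array gave 0 to 1 of the 10 genes, 0 to 1 probe sets, 0 to 927 calls over all genes (927, 65 and 2 without KO array 1, 2 or 3, and 0, 0 and 4 without WT array 1, 2 or 3) and -0.42 to -0.39 for Yap1. Where limma's adjusted p gave 0 calls over all genes, the unadjusted p was below 0.05 for 1926 and 1745 genes (without WT array 1 or 2) and 1720 (averaged).

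Values near 0 changed sign in many settings. With median centring Wwtr1 had 0.0545, Tead1 0.0424, Tead2 0.0457, Lats1 0.0505 and Amot 0.0561, and with centring over the tested genes Wwtr1 had 0.0451, Tead1 0.0331, Tead2 0.0363, Lats1 0.0411 and Amot 0.0468. Averaging gave Wwtr1 0.23 and Tead1 0.12, and moved Lats1 to -0.28 and Lats2 to 0.47 without a change of sign. Those Lats1 and Lats2 averages include probe sets that did not pass the filter. Quantile normalization gave Lats1 0.0273, the covariate gave Lats1 0.0755, and the floor gave Tead4 0.00043. Leaving out 1 array gave -0.0410 to 0.0527 for Wwtr1, -0.0805 to 0.0628 for Tead1, -0.0357 to 0.0285 for Tead2, -0.0369 to 0.0443 for Lats1, -0.14 to 0.17 for Lats2 and -0.11 to 0.0589 for Amot. The median of the upstream list was -0.00094, -0.0103 and -0.0367 with the 2 centrings and averaging, and -0.0712 to -0.0393 leaving out 1 array. That of the targets was 0.0519, 0.0425 and 0.0428, and -0.10 to 0.00165.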
